A study of Arabidopsis thaliana with 2 samples.

Results

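The genes described here are LHCB4.1 (AT5G01530), PSAE-1 (AT4G28750) and PORB (AT4G27440), 3 nuclear genes of Arabidopsis thaliana whose products serve the antenna of photosystem II, photosystem I and chlorophyll synthesis. Each was found by its symbol in the array's gene table and had 1 probe set, the group of short probes that reports a transcript. They are 3 of the 13286 genes with a probe set of their own in that table, and 3 of the 5957 that passed a filter on low signal. The genes were chosen by their signals on these same 2 arrays, where all were bright and lower in one line, so their differences are a description and no test of them was made. Signals of axillary buds from axr1-12 plants were set against those from axr3-1 plants, with 1 array per line. The rule names genes and sets no threshold of size. LHCB4.1 and PSAE-1 had drawn attention by differing at least 2-fold. The smallest difference among the 3 was that of PSAE-1, a log2 difference of -1.14, and the nearest antenna or photosystem genes short of 2-fold were LHCB4.2 and PSBY, both at -0.93.

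In axr1-12 plants the AXR1 gene has lost function; its product is part of the enzyme that starts the attachment of RUB, a small protein modifier, and is needed for normal auxin response. In axr3-1 plants the AXR3 protein (IAA17), which represses auxin-responsive genes, has gained function. Both alleles arose by ethyl methanesulfonate mutagenesis in Col-0, and no wild-type buds are among the samples. The plants of both lines grew in a growth room on compost that had been treated with Intercept WG at 21 °C and about 60% humidity in 16 h days, after a cold period of 3 days, and buds had elongated to approximately 2 mm. The series title contrasts dormant with active axillary meristems, but the labels do not say which line stands for which, nor give plant ages or how many plants were pooled.

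Chlorophyll proteins fall into reaction centre subunits and outer antenna proteins. The former are made partly in the plastid and partly from nuclear genes, and the latter are all encoded in the nucleus. Antenna proteins need chlorophyll to fold and stay in the thylakoid membrane, and antenna genes and chlorophyll synthesis genes are commonly expressed together in greening leaves. LHCB4 proteins, also called CP29, are the minor antenna that links the main light-harvesting trimers to the photosystem II core. PSAE is a small stromal subunit of photosystem I that helps to dock ferredoxin. PORB reduces protochlorophyllide to chlorophyllide, a step that needs light in flowering plants.

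LHCB4.1, PSAE-1 and PORB all had a lower signal in axr1-12 buds, with log2 differences (axr1-12 minus axr3-1) of -1.14, -1.14 and -1.52. For LHCB4.1 this is 2.21-fold and for PORB 2.87-fold lower. LHCB4.1 gave 2620 units on the axr1-12 array, against 5706 units on the axr3-1 array. PSAE-1 gave 1604 units in axr1-12 and 3473 units in axr3-1. PORB gave 1709 units in axr1-12 and 4837 units in axr3-1, the widest gap of the 3. These are deposited MAS5 signals, and the folds were taken after the axr1-12 array was scaled by a log2 shift of 0.02 to bring the median log2 difference of the probe sets past the filter to 0. Straight ratios of the deposited signals were 2.18, 2.17 and 2.83, axr3-1 over axr1-12. In whole buds, fewer cells of a green type and less RNA per cell cannot be told apart. No standard error can be given, since 1 array per line leaves the variation between plants and between hybridisations unknown.

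A partial measure of error comes from 32 genes that 2 probe sets past the filter report, whose log2 differences disagreed by a root mean square of 0.37. This covers differences among probes, not among plants. LHCB4.1 and PSAE-1 differed from each other by -0.01, far inside that disagreement. PORB lay 0.38 below LHCB4.1 and 0.39 below PSAE-1 in log2 difference, about as much as probe sets of the same gene disagree, so the order of PORB against the other genes is not settled by these arrays.

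Among the 11373 probe sets past the filter, 3.28% were at least 2-fold lower in axr1-12 and 3.1% at least 2-fold higher. All 3 genes were at least 2-fold lower, but they were chosen for such differences, so nothing is read from that count. By log2 difference, 58 probe sets were lower than PORB, 231 lower than LHCB4.1 and 242 lower than PSAE-1. The same signals can be read as places in the order of brightness on each array, which multiplying an array by a constant does not change. LHCB4.1 was in place 78 of 22746 on the axr1-12 array and place 20 on the axr3-1 array. PSAE-1 was in place 187 on the axr1-12 array and place 72 on the axr3-1 array. PORB was in place 162 on the axr1-12 array and place 37 on the axr3-1 array. Places are those of probe sets and not of transcript amounts, since probe sets differ in response.

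**Figure D1:**
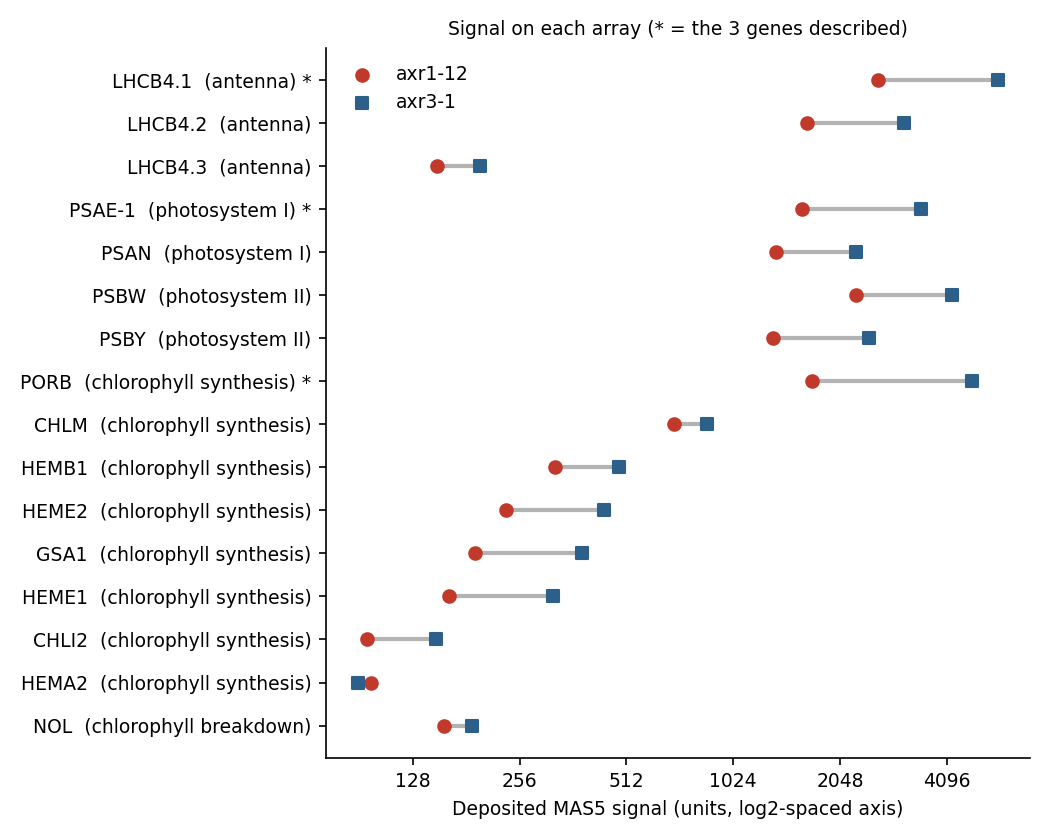
Deposited MAS5 signal (horizontal axis, units, spaced by log2) of the antenna, photosystem and chlorophyll genes past the filter, 1 row per gene. Red circles are the axr1-12 array and blue squares the axr3-1 array, 1 array each, with no error bars. In every row other than HEMA2 the axr1-12 signal is lower; PORB has the widest gap, at 1709 and 4837 units.

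Bright probe sets in general were lower on the axr1-12 array, so each gene was set beside the probe sets of like brightness. Plastid-encoded genes and the listed photosynthesis genes were left out of this trend. Photosynthesis genes whose probe sets have no entry in the array's gene table could not be left out. The median log2 difference was 0.04 over the 3272 probe sets with a mean log2 signal from 7 to 8, -0.16 over the 226 from 10 to 11, and -0.30 over the 126 at 11 or more. In that last class 82.5% were lower in axr1-12. LHCB4.1, PSAE-1 and PORB had mean log2 signals of 11.9, 11.2 and 11.5 and thus lie in the brightest class. The hybridisation spikes, bacterial and phage RNA added to the sample and not bud RNA, were also lower on the axr1-12 array in 18 of 18 probe sets, with a median log2 difference of -0.61. The part that such array differences have in the differences of the 3 genes was not tested.

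**Figure D2:**
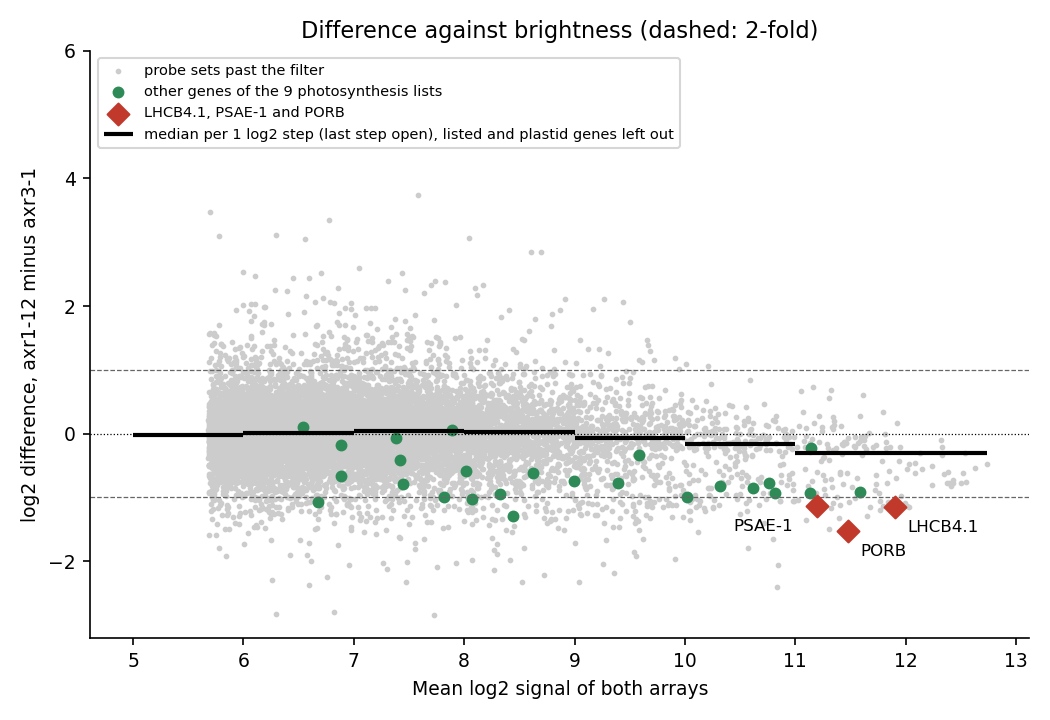
Log2 difference, axr1-12 minus axr3-1, against the mean log2 signal of both arrays. Grey points are the 11373 probe sets past the filter, green points the other genes of 9 photosynthesis lists, red diamonds LHCB4.1, PSAE-1 and PORB, black bars the median per step of brightness, and dashed lines 2-fold. The black bars drop from 0.04 to -0.30 toward the bright end, and all 3 diamonds lie below the last bar.

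Within 0.5 log2 units of the brightness of PORB there were 118 other probe sets, with a median log2 difference of -0.24 and quartiles of -0.83 and -0.08. None of these 118 was as low as PORB, whose difference lay -1.29 from their median, 2.44-fold lower. Of the 118, 16.1% were at least 2-fold lower in axr1-12. The lowest of them stood at -1.50, just short of the -1.52 of PORB. Plastid-encoded and listed photosynthesis genes were kept in the windows of the 3 genes. With them left out, PORB lay -1.31 from the median of 107 probe sets, and none was as low.

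LHCB4.1 had 77 other probe sets in its window, with a median of -0.43 and quartiles of -0.79 and -0.14. LHCB4.1 lay -0.71 from that median, 1.64-fold lower, and 4 of the 77, or 5.19%, were at least as low. In this window 16.9% were at least 2-fold lower. PORB, the plastid gene rps4 for a ribosomal protein and 2 probe sets without a single listed gene made up those 4. With plastid-encoded and listed photosynthesis genes left out, 67 probe sets had a median of -0.30. LHCB4.1 lay -0.85 from it, and 2.99% were at least as low.

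PSAE-1 had 148 other probe sets in its window, with a median of -0.22 and quartiles of -0.78 and -0.05. PSAE-1 lay -0.92 from that median, 1.89-fold lower, and 11 of the 148, or 7.43%, were at least as low. In this window 14.2% were at least 2-fold lower. PORB, the plastid gene atpA for an ATP synthase subunit, the peroxidase gene PRXR1 and AT1G13930 were the 4 of these 11 with a single listed gene. With plastid-encoded and listed photosynthesis genes left out, PSAE-1 lay -0.95 from the median of 136 probe sets, and 6.62% were at least as low.

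The windows were broad, each with its fullest step between -0.2 and 0 and a tail of lower probe sets. In steps of 0.2 from -1.2 to 0, the window of LHCB4.1 held 11, 6, 12, 9, 11 and 20 probe sets. That of PSAE-1 held 12, 14, 15, 7, 21 and 40, and that of PORB 15, 13, 12, 8, 18 and 26. In every window the step from -0.6 to -0.4 was emptier than those on either side. Around LHCB4.1 this dip was shallow, with 9 probe sets against 12 and 11. Whether any window has more than 1 centre was not tested.

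**Figure D3:**
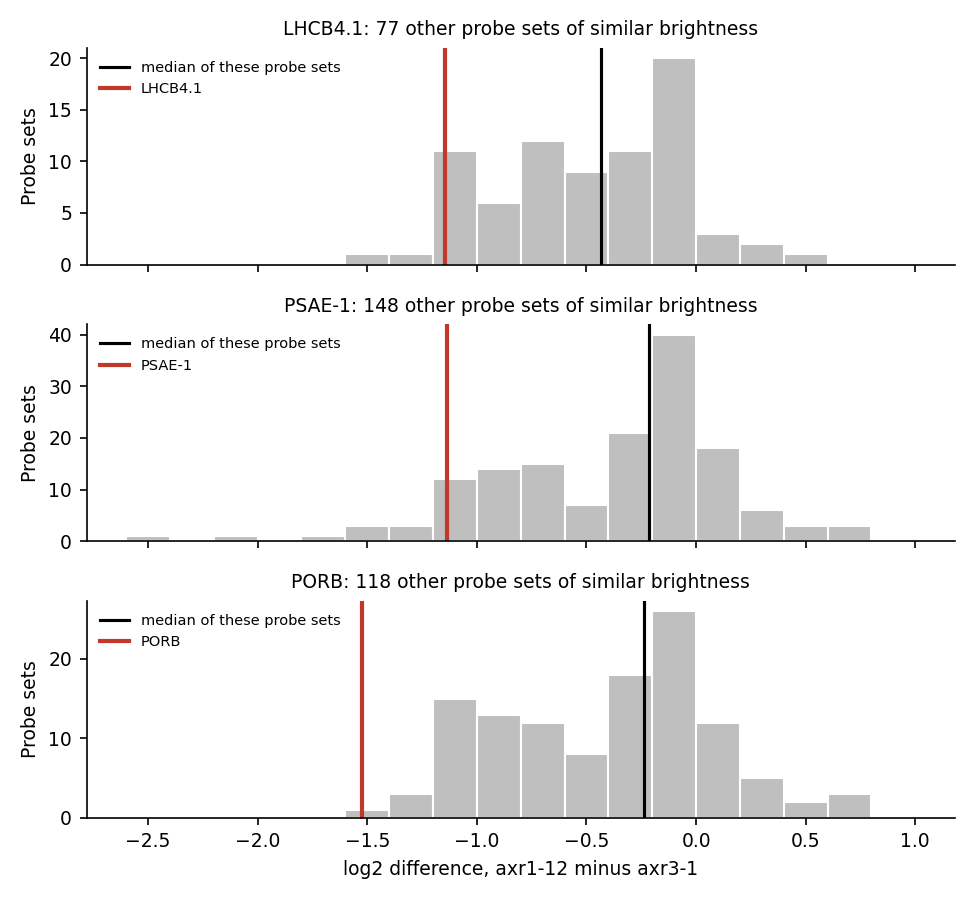
Histograms of log2 differences, axr1-12 minus axr3-1, of the 77, 148 and 118 other probe sets within 0.5 log2 units of the brightness of LHCB4.1, PSAE-1 and PORB, in steps of 0.2. Black lines are the medians of these probe sets, at -0.43, -0.22 and -0.24, and red lines the genes themselves, at -1.14, -1.14 and -1.52; the red line lies left of the black one in every panel and at the lower edge of the distribution for PORB.

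The 3 windows together, with the genes themselves, held 191 probe sets, of which 30 were at least 2-fold lower in axr1-12. Of the 14 plastid-encoded genes in them, 3 were (psaB, rps4 and atpA). Of 51 probe sets for other single genes in them, 3 were, namely PRXR1, AT4G01150 and AT1G13930. Of all 191 probe sets, 159 were lower by any amount. The 5 listed photosynthesis genes among them, without the 3 chosen ones, were all lower but less than 2-fold, at a median log2 difference of -0.91. Another 101 probe sets had no entry in the name table, 19 of them at least 2-fold lower, and their genes are not analysed here.

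The choice of the array that sets brightness mattered. With brightness taken from the axr3-1 array, the median of the window was -0.79 for PORB, -0.77 for LHCB4.1 and -0.59 for PSAE-1. The probe sets at least as low were then 2 of 63, 7 of 51 and 11 of 101. With brightness taken from the axr1-12 array they were 0 of 209, 3 of 119 and 7 of 229. The values above use the mean of both arrays.

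The antenna was represented by the 3 LHCB4 genes. The rest of the 21 list entries were not matched by gene symbol to a single-gene probe set. LHCB4.2, a close paralog of LHCB4.1 encoding the same minor antenna protein, gave 1652 units in axr1-12 and 3100 units in axr3-1, 1.90-fold lower. LHCB4.3, the more divergent member of the family, gave 150 units in axr1-12 and 198 units in axr3-1, 1.34-fold lower. The 2 bright probe sets thus had log2 differences of -1.14 and -0.93, and the dim one -0.42, little more than the 0.37 by which probe sets reporting 1 gene disagree. How far the LHCB4.1 and LHCB4.2 probes cross-hybridise was not tested.

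Of 13 photosystem I entries, PSAE-1 and PSAN were matched to a single-gene probe set and measured. Other entries of this and the further lists may be among the 8730 probe sets without an entry in the name table. PSAN, a subunit on the lumen side that takes part in the docking of plastocyanin, gave 1349 units in axr1-12 and 2275 units in axr3-1, 1.71-fold lower. Of 14 nuclear photosystem II entries, the small membrane subunits PSBW and PSBY were measured. PSBW gave 2279 units in axr1-12 and 4227 units in axr3-1, 1.88-fold lower. PSBY gave 1326 units in axr1-12 and 2481 units in axr3-1, 1.90-fold lower. Of the 5 antenna and photosystem genes other than LHCB4.1 and PSAE-1, all were lower in axr1-12 and 4 at least 1.5-fold lower. The shares over all probe sets past the filter were 50.0% and 11.5%. The 5 genes ranged in log2 difference from -0.93 to -0.42. Their median was -0.91, against -0.02 over all 5957 genes past the filter.

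LHCB4.2, PSAN, PSBW and PSBY have a mean log2 signal above 10, where lower signals were common. With plastid and listed photosynthesis genes left out, the 352 other probe sets there had a median log2 difference of -0.21, and 31.2% of them were at least 1.5-fold lower. Against their own brightness windows, LHCB4.2 lay -0.71 from the median, PSBY -0.70, PSBW -0.58 and PSAN -0.56. The shares of these windows at least as low were 16.4%, 14.3%, 22.8% and 18.9%, so many probe sets of like brightness differed as much. Plastid-encoded genes, listed photosynthesis genes and probe sets without an entry in the name table were kept in these windows. The shares are thus not those of unrelated genes alone. LHCB4.3, which is dim, lay -0.45 from the median of its window, of which 15.3% was at least as low.

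Plastid-encoded subunits of the same complexes were lower too. Of photosystem I, the nuclear gene PSAN, the one left once PSAE-1 is set aside, had a log2 difference of -0.78, and the 5 plastid-encoded genes had a median of -1.04 with a range from -1.48 to -0.43. Of photosystem II and its antenna, the nuclear genes other than LHCB4.1 ranged from -0.93 to -0.42, and the 15 plastid-encoded genes had a median of -0.70 with a range from -2.18 to -0.22. The nuclear values lie inside the plastid ranges, and the difference between the sets was not tested. The primer used for labelling binds poly(A) tails, which nuclear transcripts carry and most plastid transcripts lack or have only briefly.

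Chlorophyll synthesis had 8 measured genes of 30 entries, of which 7 were lower in axr1-12 and 1 was higher. Over all probe sets past the filter, 50.0% were lower. PORB had the widest difference of the 8 genes. The early steps make 5-aminolevulinic acid and join it into a porphyrin ring. HEMA2, a glutamyl-tRNA reductase gene known for its expression in roots and other non-green tissue, gave 97.7 units in axr1-12 and 89.6 units in axr3-1, a log2 difference of 0.10. GSA1, encoding the aminotransferase that completes 5-aminolevulinic acid, gave 192 units in axr1-12 and 383 units in axr3-1, 2.03-fold lower. HEMB1, the next enzyme, gave 322 units in axr1-12 and 487 units in axr3-1, 1.53-fold lower. The uroporphyrinogen decarboxylase genes HEME1 and HEME2 were 1.99-fold and 1.92-fold lower. HEME1 gave 162 units in axr1-12 and 318 units in axr3-1, and HEME2 gave 235 units in axr1-12 and 444 units in axr3-1. GSA1, HEME1 and HEME2 thus had log2 differences of -1.02, -0.99 and -0.94, at mean log2 signals of 8.07, 7.82 and 8.32.

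On the magnesium branch, CHLI2, a minor isoform of a magnesium chelatase subunit, gave 95.0 units in axr1-12 and 149 units in axr3-1, 1.59-fold lower. CHLM, the methyltransferase that follows the chelatase, gave 697 units in axr1-12 and 862 units in axr3-1. Its log2 difference of -0.33 is smaller in size than the 0.37 by which 2 probe sets reporting 1 gene disagree, a figure that holds the error of both. AT1G74470, which has the synonym geranylgeranyl reductase and was looked up after the values were seen, gave 1467 units in axr1-12 and 2436 units in axr3-1, 1.68-fold lower. That enzyme provides the phytyl tail of chlorophyll. Of the 11 chlorophyll breakdown entries only NOL, part of the chlorophyll b reductase, was measured, at 157 units in axr1-12 and 187 units in axr3-1 and a log2 difference of -0.28.

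The 7 chlorophyll synthesis genes other than PORB ranged in log2 difference from -1.02 to 0.10, with a median of -0.67. Of them 5 were at least 1.5-fold lower, and all 7 had a mean log2 signal below 10. The brightness trend was close to 0 there. Over the 10931 probe sets past the filter in that range, with plastid and listed photosynthesis genes left out, the median was 0.01 and 10.3% were at least 1.5-fold lower. Set against its own brightness window, GSA1 lay -1.04 from the median, HEME1 -1.02, HEME2 -0.95, CHLI2 -0.70, HEMB1 -0.62, CHLM -0.23 and HEMA2 0.09. The share of the window at least as low was 2.78% for HEME1, 3.02% for GSA1, 12.2% for HEMB1, 32.4% for CHLM and 57.7% for HEMA2, and for HEME2 and CHLI2 it lay between those of GSA1 and HEMB1. Listed photosynthesis genes at a mean log2 signal of 10 or more, without the 3 chosen ones, numbered 8. All 8 were lower and 7 at least 1.5-fold lower. Their median was -0.88, beside -0.21 for the 352 other probe sets there. Of those 352, 31.2% were at least 1.5-fold lower. Lower by any amount were 71.7% of the 226 from 10 to 11 and 82.5% of the 126 at 11 or more.

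**Figure D4:**
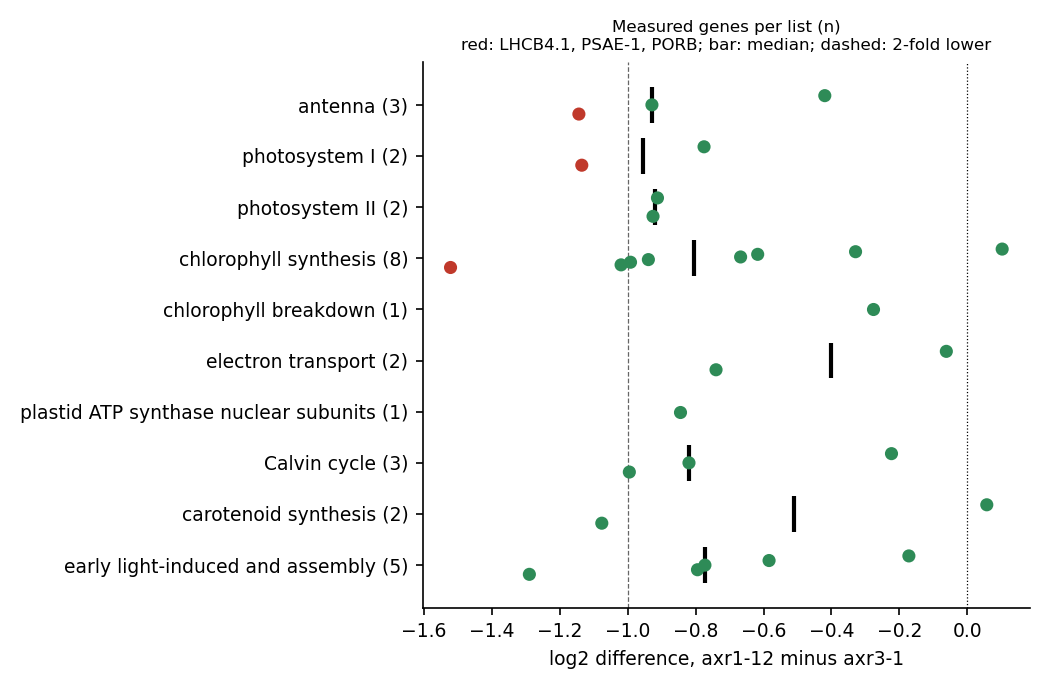
Log2 difference, axr1-12 minus axr3-1, of each measured gene (points) by list, with the number of genes in brackets, the median as a black bar where a list has over 1 gene, and a dashed line at 2-fold lower. Red points are LHCB4.1, PSAE-1 and PORB. Points lie left of 0 except HEMA2 at 0.10 and the carotenoid gene LYC at 0.06.

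Other genes of the light reactions and carbon fixation, listed for context, pointed the same way with a few near 0. Over 5 further lists 13 genes were measured, of which 12 were lower, 8 at least 1.5-fold and 2 at least 2-fold, and their median log2 difference was -0.77. Over all probe sets past the filter, the shares were 50.0%, 11.5% and 3.28%. LIL3:1, a light-harvesting-like protein that anchors geranylgeranyl reductase in the membrane, was 2.45-fold lower, at 226 units in axr1-12 and 544 units in axr3-1. Its paralog LIL3:2 was 1.71-fold lower. Z-ISO, an isomerase of carotenoid synthesis, was 2.11-fold lower, at 71.5 units in axr1-12 and 149 units in axr3-1, whereas the lycopene cyclase gene LYC differed by 0.06. Of the Calvin cycle, SBPASE was 1.99-fold and PRK 1.77-fold lower.

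RCA, Rubisco activase, has a probe set in the brightest class too but differed little, at 2122 units in axr1-12 and 2441 units in axr3-1 and a log2 difference of -0.22. To 2 decimals, that is the median of its own brightness window. ATPC1, the gamma subunit of the plastid ATP synthase, was 1.80-fold lower, while the signal of ATPC2 was too dim to pass the filter. TROL, which anchors ferredoxin-NADP reductase in the thylakoid, was 1.67-fold lower, and PGRL1B of cyclic electron flow differed by -0.06. Of the photosystem assembly genes LPA2, HCF101 and LPA1, log2 differences were -0.79, -0.58 and -0.17. Of the 25 genes over all 9 photosynthesis lists, without the 3 chosen ones, 23 were lower and 17 at least 1.5-fold lower. The shares over all probe sets past the filter were 50.0% and 11.5%. Of the 25 genes, 8 had a mean log2 signal of 10 or more, where 31.2% of other probe sets were at least 1.5-fold lower.

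The genes nearest to each of the 3 by distance over both log2 signals, a measure over 2 arrays only, were these. For LHCB4.1 they were psaB, a core protein of photosystem I made in the plastid, at a distance of 0.14, then rps4 at 0.20 and AT1G13930 at 0.32. For PSAE-1 they were LHCB4.2 at 0.17, AT4G01150 at 0.21 and AT1G54410 at 0.24. AT4G01150, with the synonym CURT1A for a protein that curves thylakoid membranes, gave 1802 units in axr1-12 and 3790 units in axr3-1, 2.13-fold lower. For PORB they were PRXR1 at 0.19, AT4G01150 at 0.36 and AT1G13930 at 0.39. PRXR1 gave 1731 units in axr1-12 and 4245 units in axr3-1, 2.49-fold lower.

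The single genes just brighter and just dimmer than PORB, AT5G15200 and AT2G41840, had log2 differences of -0.20 and -0.14. Those next to PSAE-1, AT1G67430 and psbC of photosystem II, had -0.14 and -0.59. Those next to LHCB4.1 were the plastid genes psbM and ndhI, at -0.43 and -0.58.

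Chromosomal neighbours, in the order of the TAIR10.1 annotation, did not share the differences throughout. AT4G27450, the gene after PORB on chromosome 4, gave 1270 units in axr1-12 and 565 units in axr3-1, 2.22-fold higher in axr1-12. AT4G27435, before PORB, did not pass the filter, at 38.3 units in axr1-12 and 65.7 units in axr3-1. AT4G28740, before PSAE-1 on the same chromosome, gave 86.2 units in axr1-12 and 133 units in axr3-1, 1.56-fold lower. No probe set is listed for the gene after PSAE-1, or for either neighbour of LHCB4.1 on chromosome 5.

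The scaling of the arrays set how large the differences were. After quantile scaling, which forces both arrays to the same distribution, PORB was 2.08-fold lower in axr1-12, PSAE-1 1.73-fold and LHCB4.1 1.65-fold. After loess scaling, which removes the trend with brightness, they were 2.26-fold, 1.77-fold and 1.68-fold lower. PORB alone of the 3 stayed past 2-fold under both. The 7 antenna and photosystem genes were lower under both, with none at 2-fold. In the chlorophyll synthesis list GSA1, HEME1 and PORB were then at least 2-fold lower, against GSA1 and PORB before. RCA changed sign, to 0.19 after quantile and 0.08 after loess scaling.

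**Figure D5:**
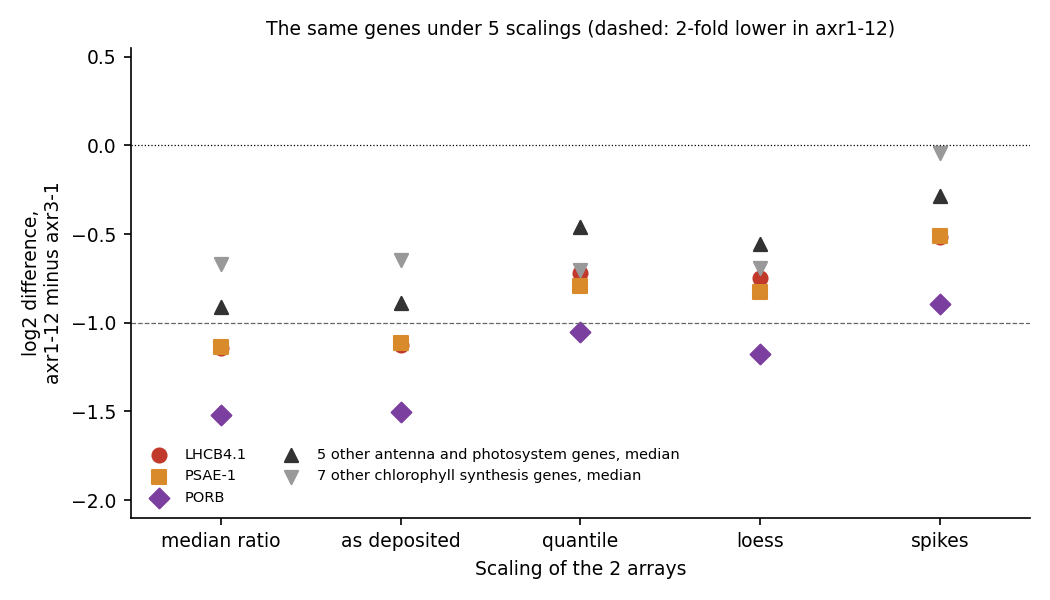
Log2 difference, axr1-12 minus axr3-1, under 5 scalings of the arrays (horizontal axis), for LHCB4.1, PSAE-1, PORB, the median of 5 other antenna and photosystem genes and the median of 7 other chlorophyll synthesis genes. No point lies above 0; only PORB lies below the dashed 2-fold line after quantile and loess scaling, and no point does when the arrays are scaled on the spikes, where the median of all probe sets lies at 0.63.

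The arrays were alike in signs of RNA integrity. Median signals were 52.3 units in axr1-12 and 51.8 units in axr3-1. The deposited signals have the same trimmed mean on both arrays, 100.0, so the like medians say little about the samples. Over 6 pairs of control probe sets, the log2 ratio of 3′ to 5′ signal differed by a median of -0.03, axr1-12 minus axr3-1, with a range from -0.39 to 0.20. The control for 25S ribosomal RNA stood at 549 units in axr1-12 and 1101 units in axr3-1, and 5 control probe sets for GAPDH, a housekeeping enzyme, had a median log2 difference of -0.47. No probe set is listed for AXR1 or AXR3, so neither label was checked against the gene mutated in that line. Of the bud and meristem markers, LAS gave 61.8 units in axr1-12 and 69.8 units in axr3-1, PHV gave 169 units in axr1-12 and 147 units in axr3-1, and CLV3 lay below the floor of 15.3 units on both arrays. Of the epidermal and stomatal markers SPCH and MUTE lay below the floor on both arrays and FAMA, listed as FMA, did not pass the filter. The vascular markers had no probe set matched by gene symbol. AMS, the one root or floral marker measured, gave 66.5 units in axr1-12 and 46.8 units in axr3-1, and HYH, the one light regulator listed, did not pass the filter. Line, bud sample and array likewise cannot be told apart with 1 array per line.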

How the data were processed

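Total RNA was primed with oligo(dT) carrying a T7 promoter, made into biotin-labelled cRNA and hybridised to 1 single-colour Affymetrix array per line, per the labels' protocols. The deposited intensity of each probe set is linear, and the submitters' processing notes name MAS5, with no version. The mean after trimming 2% at each end was 100.0 on both arrays.

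Of 22810 probe sets, 64 controls were set aside. The median ratio of probe sets past the filter was used to scale axr1-12 (log2 shift 0.02), signals below the 25th percentile, 15.3 units, were raised to it, and log2 differences were taken as axr1-12 minus axr3-1. Probe sets at or above the median mean log2 signal, 5.69, passed the filter. A gene was represented by its brightest probe set.

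GEO's platform table gave 1 gene with a locus in TAIR10.1 for 13436 probe sets, several for 503 and no entry for 8730. Of 220 entries in 15 lists, 212 were in the assembly's table. Entries were matched to probe sets by the assembly's gene symbols and not by its synonyms. Of the matches, 3 were dropped because the symbol belonged to another gene or isoform. The genes, lists and alternatives were chosen with earlier results of these data known. Text names LHCB4.1, PSAE-1 and PORB, every measured antenna, photosystem and chlorophyll gene, up to 4 genes of each other list, the 3 nearest genes in both log2 signals, and neighbours in brightness and on the chromosome. A few genes were named after their values were seen: the single genes in the windows at least 2-fold lower, LPA1 and AT1G74470, and those in the closing section.

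With 1 array per line no test was possible. On simulated data, the recovery of a set shift and of set differences was checked. The values for a brightness window and for quantile and loess scaling were computed there without a pass limit. Tools were python 3.11.15, numpy 2.4.6, pandas 2.3.3, statsmodels 0.14.6 (loess span 0.3) and matplotlib 3.10.9. Alternatives were other scalings, floors, filters and brightness windows.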

Additional observations from a re-analysis of the deposited data

How the results depend on the processing

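No paired analysis was possible because there was 1 array per line. None of the 68 alternative values changed sign. A value was taken as moved when it shifted by 0.37 log2 units or more, by which probe sets reporting 1 gene disagree. The log2 difference of LHCB4.1, -1.14, became -0.72 after quantile and -0.75 after loess scaling, and that of PORB, -1.52, became -1.05 after quantile scaling. The median of the 5 other antenna and photosystem genes, -0.91, became -0.46 after quantile scaling, while that of the 7 other chlorophyll synthesis genes, -0.67, was -0.70 there. Scaling on the hybridisation spikes, an alternative chosen after seeing the data, moved the median of all probe sets past the filter to 0.63. By construction it shifted LHCB4.1 to -0.52, PSAE-1 to -0.51, PORB to -0.90 and the 2 list medians to -0.29 and -0.041, without changing differences between genes. With brightness taken from axr3-1, the distance from the window median was -0.54 for PSAE-1, against -0.92, and -0.73 for PORB, against -1.29. The causes of these moves, other than the spikes' shift, were not tested. Of 18 alternative values of the 3 genes, 12 moved by less than that disagreement, as did 28 of 30 distances from a window median and 17 of 20 list medians. These counts are no measure of robustness, since several settings could hardly move a value. Leaving out the floor changed none of the 3 bright genes, and the deposited scale shifted every gene by 0.02. All moved log2 differences of the 3 genes came from quantile, loess or spike scaling. The moved distances from a window median came from taking brightness from axr3-1. Counts at 2-fold in the antenna and photosystem lists were 2 of 7, namely LHCB4.1 and PSAE-1, and became 0 of 7 after quantile or loess scaling. Having 1 array per line and the choice of scaling both limit these values. The 3 genes lay far above the highest dim bacterial control, 29.4 units.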

Other observations

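Other nuclear genes for proteins of the plastid, named after their values were seen, were also lower in axr1-12. CHL, annotated as a chloroplastic lipocalin, gave 289 units in axr1-12 and 721 units in axr3-1, 2.54-fold lower in axr1-12. PIFI, named for the rise of chlorophyll fluorescence after illumination, gave 553 units in axr1-12 and 1201 units in axr3-1, 2.21-fold lower. AT1G52220, with the synonym CURT1C, gave 754 units in axr1-12 and 1205 units in axr3-1, 1.62-fold lower. Since they were picked by their values, they add no support to the differences of LHCB4.1, PSAE-1 and PORB.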
